A study of Rattus norvegicus with 2 samples.

Results

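The genes described here are 10 transcription factors of photoreceptors, chosen by symbol: *Crx*, *Otx2*, *Nrl*, *Nr2e3*, *Rorb*, *Thrb*, *Rxrg*, *Neurod1*, *Mef2d* and *Prdm1*. Each symbol matched 1 gene of the 32662 in the expression table, and 9 of the 10 reached an FPKM (fragments per kilobase of transcript, scaled to the number of mapped reads) of at least 1, in both libraries. Retinas of Long-Evans rats aged 2 months were sequenced. CTRL is 1 library from a sham-operated retina, and IR12 is 1 library from a retina collected 12 hours after reperfusion that followed ischemia. Both libraries were made from total RNA with a strand-preserving kit and removal of rRNA. With 1 library in each group, the differences below carry no replicate error, and no test was run.

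Photoreceptors are specified and maintained by a small network of DNA-binding proteins. Otx2 commits progenitors to the photoreceptor lineage and activates *Crx*, whose product binds and activates genes of rods and cones. Rorb acts upstream of *Nrl*, Nrl directs cells to the rod fate and activates *Nr2e3*, Nr2e3 represses cone genes in rods, and Thrb and Rxrg control the choice of opsin in cones. Neurod1, Mef2d and Prdm1 act beside this core, in maintenance of photoreceptors, in binding of photoreceptor genes together with Crx, and in repression of the bipolar cell program.

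At 12 hours after reperfusion 9 of the 10 members of the network were measured in both libraries, and these did not move as a block. Relative to the others, *Rorb* and *Prdm1* were lower in IR12 and *Neurod1* was higher, while *Crx* differed by 1.01-fold as deposited. The FPKM of 8 of the 9 factors with FPKM of at least 1 was lower in IR12 as deposited, where 48.2% of the 13599 genes with such a value were lower. Counted on (FPKM + 1), as are all counts past a fold, no factor was at least 2-fold lower or higher, as 6.12% and 6.56% of all these genes were. At least 1.5-fold lower were 2 of 9, *Rorb* and *Prdm1*, against 13.7% of all genes. The median log2 ratio of (FPKM + 1), IR12 over CTRL, was -0.25 for the 9 factors and 0.02 for all genes.

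The direction of most factors depends on how the libraries are scaled. Bringing both columns to a common sum, called the TPM scale here, raises every log2 ratio by 0.65 before the pseudocount of 1 is added. On the TPM scale 2 factors were lower (*Rorb* and *Prdm1*) and 7 were higher. Of all genes 15.7% were then lower, the median of the factors was 0.37 and that of all genes was 0.59. Genes at least 2-fold higher and lower then numbered 2817 and 436, against 892 and 832 as deposited. Small non-coding RNAs hold 67.8% of the FPKM sum in CTRL and 46.1% in IR12. With a common sum over the other genes, which shifts all values by -0.09, 8 factors were lower again and their median was -0.34. *Rorb* and *Neurod1* kept their direction on every scale tried. *Prdm1* did so by sign, but its log2 ratio of -0.05 on the TPM scale lies within counting error.

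**Figure D1:**
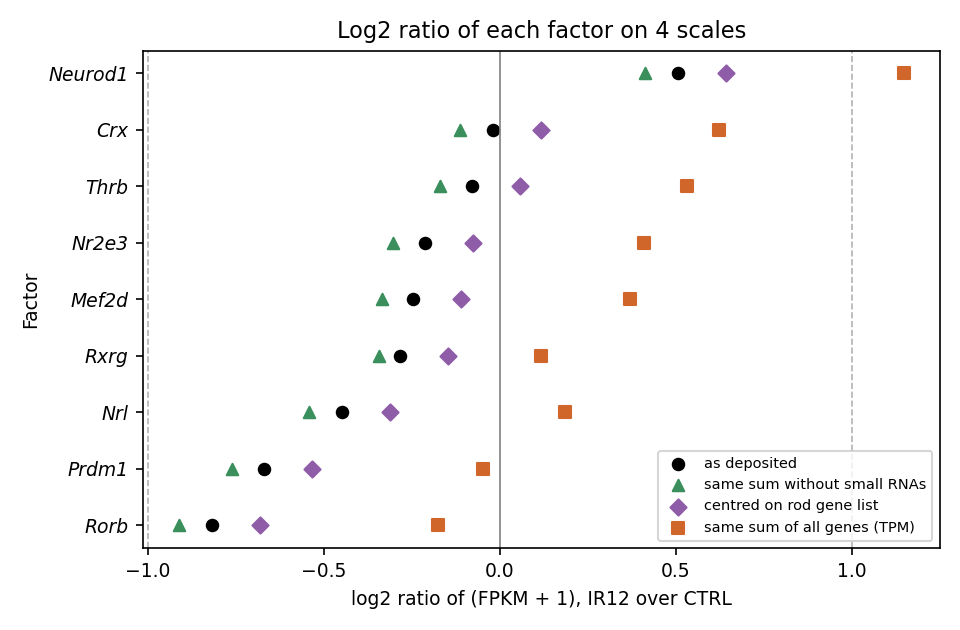
Log2 ratio of (FPKM + 1), IR12 over CTRL, for 9 factors on 4 scales: as deposited (circles), with a common sum without small non-coding RNAs (triangles), centred on the median of the rod gene list (diamonds) and with a common sum of all genes (squares). *Crx*, *Thrb*, *Nr2e3*, *Mef2d*, *Rxrg* and *Nrl* lie below 0 as deposited and above 0 on the TPM scale, *Crx* and *Thrb* also lie above 0 on the rod-centred scale, and *Rorb*, *Prdm1* (-0.05 on the TPM scale) and *Neurod1* keep their side of 0; dashed lines mark 2-fold.

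The regulatory sequence of 5 factors is shown because these members carry the comparison: *Crx* and *Thrb*, whose promoters hold the Crx core motif, *Nrl*, the rod determinant, and *Rorb* and *Neurod1*, which moved furthest apart. Each line gives the 250 bases upstream of the gene's start in RefSeq, 5′ to 3′ on the strand of the gene, with its place on GRCr8. These places are *Crx* chr1:85681853-85682102, *Thrb* chr15:10461447-10461696, *Nrl* chr15:32981443-32981692, *Rorb* chr1:225970974-225971223 and *Neurod1* chr3:84770455-84770704, all on the minus strand. Capitals mark matches to the searched motifs on either strand: TAATCC (Crx and Otx2 core, GGATTA on the other strand), TGCTGA (core of Maf family sites such as those of Nrl, TCAGCA on the other strand), AGGTCA (nuclear receptor motif) and the E-boxes CAGATG and CAGCTG, which bHLH proteins such as Neurod1 bind.
Crx: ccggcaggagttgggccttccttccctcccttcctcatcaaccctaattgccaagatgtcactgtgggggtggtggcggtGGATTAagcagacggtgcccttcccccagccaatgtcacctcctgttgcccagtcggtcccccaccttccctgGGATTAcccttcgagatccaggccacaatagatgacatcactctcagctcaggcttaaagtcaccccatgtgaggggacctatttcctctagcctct
Thrb: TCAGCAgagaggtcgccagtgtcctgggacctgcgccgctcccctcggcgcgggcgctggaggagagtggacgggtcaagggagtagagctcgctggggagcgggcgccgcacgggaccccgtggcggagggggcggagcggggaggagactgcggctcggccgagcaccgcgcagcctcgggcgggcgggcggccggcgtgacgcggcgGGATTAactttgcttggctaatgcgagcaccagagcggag
Nrl: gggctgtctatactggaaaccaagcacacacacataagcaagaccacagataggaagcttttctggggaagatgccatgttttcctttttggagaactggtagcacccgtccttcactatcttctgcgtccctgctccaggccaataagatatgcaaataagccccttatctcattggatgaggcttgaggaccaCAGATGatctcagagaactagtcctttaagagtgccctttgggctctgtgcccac
Rorb: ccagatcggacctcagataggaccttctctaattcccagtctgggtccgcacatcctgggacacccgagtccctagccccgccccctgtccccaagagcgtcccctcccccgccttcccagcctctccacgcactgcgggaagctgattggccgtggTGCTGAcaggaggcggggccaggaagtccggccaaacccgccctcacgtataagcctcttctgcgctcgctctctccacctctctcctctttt
Neurod1: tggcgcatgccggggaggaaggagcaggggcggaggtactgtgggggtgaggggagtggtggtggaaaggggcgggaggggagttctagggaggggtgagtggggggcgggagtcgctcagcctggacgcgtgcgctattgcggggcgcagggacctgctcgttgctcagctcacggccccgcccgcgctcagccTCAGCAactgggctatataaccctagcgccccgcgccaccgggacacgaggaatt

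The *Crx* window holds GGATTA at -170 to -165 and at -97 to -92, where -1 is the last base before the start, and *Thrb* holds it at -40 to -35. Thus 2 of the 9 factors with a promoter in the RefSeq table hold the Crx core, against 6.34% of 33469 promoters of the same length. TGCTGA or its complement was found in 4 of 9 (*Mef2d*, *Neurod1*, *Rorb* and *Thrb*), against 15.1% of all promoters. CAGATG was found in *Nrl* alone of the 9 and CAGCTG in *Nr2e3* alone, against 14.0% and 12.0% of all. AGGTCA was found in none of the 9 windows, against 14.1% of all. No match overlapped a match of another motif. *Otx2* had no entry in the table. A match describes the letters of a window and is neither a binding site nor a cause.

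Among the homeodomain factors, *Crx* (chr1:77745288-77750960 on rn6), the general activator of rod and cone genes, stood at 96.8 FPKM in CTRL and 95.5 FPKM in IR12. Its level was thus nearly the same in both libraries as deposited, with a log2 ratio of -0.02, and 46.7% of all genes had a lower ratio. On the TPM scale its log2 ratio was 0.62, close to the 0.59 of the median gene. *Otx2* (chr15:25502019-25505691), which acts before *Crx*, is listed at 0 in CTRL and at 0 in IR12. Genes that all cells use, *Rps6* and *Hprt1*, are also listed at 0 in both libraries, as are all 37 mitochondrial genes, so nothing can be read from the *Otx2* value. Its paralogue *Otx1* is likewise listed at 0 in both.

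On the rod side, *Rorb* (chr1:234252757-234435839), the nuclear receptor upstream of *Nrl*, stood at 142 FPKM in CTRL and 80.2 FPKM in IR12. It had the highest FPKM of the 9 measured factors in CTRL and the lowest log2 ratio of the 9 measured, -0.82 as deposited and -0.17 on the TPM scale, and 8.32% of all genes had a lower ratio. *Nrl* (chr15:34197193-34198921), the basic leucine zipper protein that directs the rod fate, stood at 54.1 FPKM in CTRL and 39.4 FPKM in IR12. It was 1.37-fold lower as deposited, with a log2 ratio of -0.45, but 0.18 on the TPM scale. *Nr2e3* (chr8:64797518-64800467), the orphan receptor that Nrl activates and that represses cone genes, stood at 27.3 FPKM in CTRL and 23.5 FPKM in IR12. Its log2 ratio was -0.21 as deposited and 0.41 on the TPM scale. Of these 3 genes, *Rorb* thus had the lowest ratio and *Nr2e3* the highest.

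In a retina sampled whole, fewer cells of a type and less RNA per cell cannot be told apart, and some of these genes are expressed in several cell types. *Rorb* is also known from amacrine, horizontal and other inner retinal cells, *Crx* and *Neurod1* from bipolar or inner retinal cells. The levels within these cells were not measured.

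**Figure D2:**
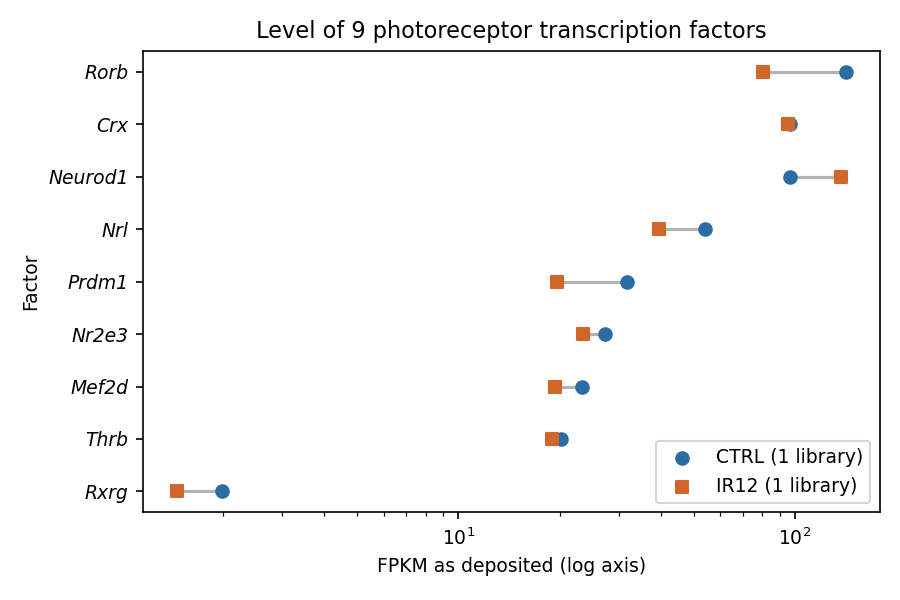
FPKM as deposited (log axis) of 9 factors in CTRL (circles) and IR12 (squares), 1 library each, ordered by CTRL. *Rorb* leads in CTRL with 142 and *Neurod1* in IR12 with 137, and *Otx2*, listed at 0 in both, has no place on a log axis.

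On the cone side, *Thrb* (chr15:8890578-9086282), the thyroid hormone receptor whose cone isoform is needed for M opsin, stood at 20.1 FPKM in CTRL and 19.0 FPKM in IR12. *Rxrg* (chr13:85818427-85868552), the retinoid X receptor of cones that represses S opsin together with Thrb, stood at 1.99 FPKM in CTRL and 1.45 FPKM in IR12. *Rxrg* was thus the lowest measured factor in both libraries, and *Thrb* was the next above it. Their log2 ratios were -0.08 and -0.28 as deposited, and 0.53 and 0.12 on the TPM scale. The table gives 1 value for all isoforms of *Thrb*, so the cone isoform was not measured apart. Of the opsins that these receptors control, *Opn1sw* (S opsin) stood at 6.68 FPKM in CTRL and 2.66 FPKM in IR12, and *Opn1mw* (M opsin), named here after its values were seen, had 26.0 and 22.8. As deposited, S opsin thus differed more between the libraries than either receptor, with a log2 ratio of -1.07. On the TPM scale its log2 ratio was -0.54, about the size of the 0.53 of *Thrb* with the opposite sign.

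*Neurod1* (chr3:66403184-66436668), a basic helix-loop-helix factor needed for upkeep of photoreceptors, stood at 96.4 FPKM in CTRL and 137 FPKM in IR12. It was the only factor higher in IR12 as deposited, 1.42-fold with a log2 ratio of 0.51, and 82.6% of all genes had a lower ratio. On the TPM scale its log2 ratio was 1.15, the only factor past 2-fold on any scale tried. A short gene model, Rn50_3_0730.2, shares its listed locus and stood at 2.19 FPKM in CTRL and 4.10 FPKM in IR12. The level of that model is small beside that of *Neurod1*, and whether counting used strand is not given in the sources used here.

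*Mef2d* (chr2:187512164-187538026), a MADS-box factor that binds photoreceptor genes together with Crx, stood at 23.2 FPKM in CTRL and 19.4 FPKM in IR12. Its log2 ratio of -0.25 as deposited is the median of the 9 factors, and became 0.37 on the TPM scale. *Prdm1* (chr20:49464919-49556518), a zinc finger repressor that holds young photoreceptors back from the bipolar fate, stood at 31.8 FPKM in CTRL and 19.6 FPKM in IR12. It was 1.62-fold lower as deposited, with a log2 ratio of -0.67, and stayed just below 0 on the TPM scale at -0.05.

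Counting error can be judged from the lowest values in the table, which move in steps of whole reads. At 17 of 25 gene lengths with such steps, a read was worth 1.71 times as much FPKM in CTRL as in IR12. A read per kilobase came to 0.0649 FPKM in CTRL and 0.0380 in IR12, so that the CTRL column rests on 15.4 M reads and the IR12 column on 26.3 M (M for 1000000), provided that the authors scaled by mapped reads only. The study sequenced several times more reads, with a smaller ratio between the libraries. The source of this gap was not tested, so the depth and the intervals below hold only if these steps are single reads. By this reading 1 kb of *Neurod1* carried 1485 reads in CTRL and 3612 in IR12, while 1 kb of *Rxrg* carried 30.6 and 38.3. Exact 95% binomial intervals of the log2 ratio of FPKM, for 1 kb of transcript and for counting error alone, ran from -0.91 to -0.74 for *Rorb* and from -0.88 to -0.51 for *Prdm1*. For *Nrl* the interval was -0.59 to -0.33, and for *Neurod1* it was 0.42 to 0.60. Those of *Nr2e3* (-0.40 to -0.04) and *Mef2d* (-0.46 to -0.06) ended just below 0. Intervals of *Crx* (-0.11 to 0.07), *Thrb* (-0.29 to 0.13) and *Rxrg* (-1.20 to 0.25) held 0. On the TPM scale, the interval of *Prdm1* (-0.23 to 0.13) and that of *Rxrg* (-0.55 to 0.90) held 0, while that of *Rorb* was -0.26 to -0.09. A transcript longer than 1 kb would carry more reads and have a narrower interval, and none of these intervals covers variation between retinas.

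The order of the factors by FPKM within a library does not depend on the scale. In CTRL it was *Rorb*, *Crx*, *Neurod1*, *Nrl*, *Prdm1*, *Nr2e3*, *Mef2d*, *Thrb* and *Rxrg*. In IR12 it was *Neurod1*, *Crx*, *Rorb*, *Nrl*, *Nr2e3*, *Prdm1*, *Mef2d*, *Thrb* and *Rxrg*. *Rorb* and *Neurod1* thus exchanged the top place, and *Prdm1* passed below *Nr2e3*. Of 8 pairs of neighbours in each order, 2 were not apart beyond counting error at 1 kb: *Crx* and *Neurod1*, and *Mef2d* and *Thrb*, in CTRL, and *Prdm1* and *Mef2d*, and *Mef2d* and *Thrb*, in IR12.

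Ratios of FPKM between factors of the same library are free of scale too. *Neurod1* stood at 0.679 times *Rorb* in CTRL and at 1.71 times *Rorb* in IR12, a 2.52-fold change of the ratio. This was the widest shift between any pair of the 9 factors, since these have the highest and the lowest fold. Relative to *Crx*, *Rorb* went from 1.47 to 0.840 and *Neurod1* from 0.996 to 1.44. *Nrl* went from 0.559 to 0.412 times *Crx*, and *Prdm1* from 0.328 to 0.205. The ratio to *Crx* was lower in IR12 for each other measured factor but *Neurod1*. For *Thrb* (0.208 and 0.199) and *Rxrg* (0.0205 and 0.0152), the interval of the factor's own log2 ratio as deposited held 0 at 1 kb. Counting error of the ratios to *Crx* was not computed. Within the rod sequence, *Nr2e3* went from 0.505 to 0.596 times *Nrl*, a 1.18-fold shift whose counting error was not computed. Within the cone pair, *Rxrg* went from 0.0987 to 0.0765 times *Thrb*, a shift that rests on the few reads of *Rxrg*.

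**Figure D3:**
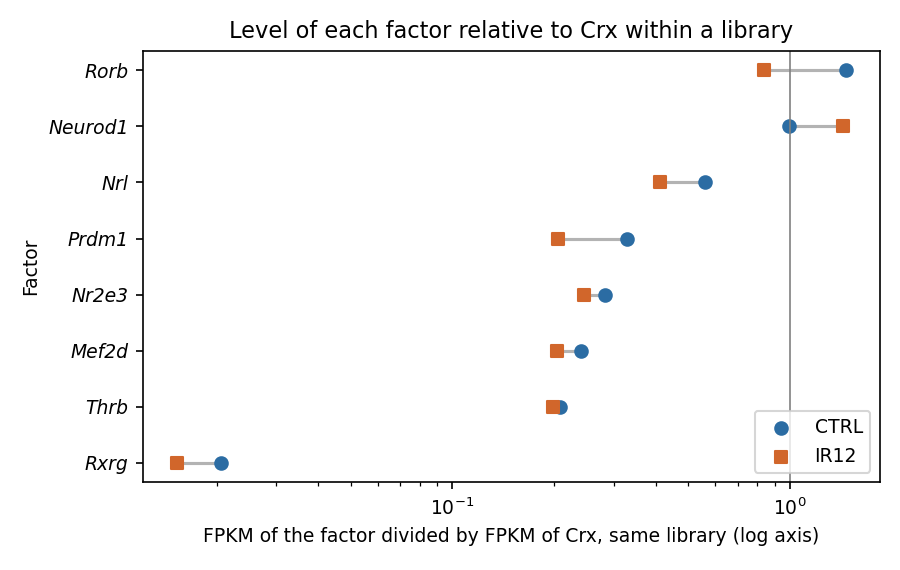
FPKM of 8 factors divided by the FPKM of *Crx* in the same library (log axis), for CTRL (circles) and IR12 (squares), a ratio that no rescaling changes. *Rorb* crosses from 1.47 to 0.840 and *Neurod1* rises from 0.996 to 1.44, and the other 6 factors lie to the left in IR12.

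Paralogues show whether a change belonged to a family. Of 20 listed paralogues 19 were in the table and 11 reached FPKM 1, of which 9 were lower and 2 higher in IR12 as deposited (2 lower and 9 higher on the TPM scale), with a median log2 ratio of -0.26. Lower were thus 81.8% as deposited and 18.2% on the TPM scale, against 48.2% and 15.7% of all genes. *Rora*, the close relative of *Rorb*, stood at 69.3 FPKM in CTRL and 71.2 FPKM in IR12. *Rorb* went from 2.05 times *Rora* to 1.13 times, so the lower level of *Rorb* was not shared by *Rora*. *Neurod4*, a relative of *Neurod1* also expressed in the inner retina, stood at 195 FPKM in CTRL and 163 FPKM in IR12. *Neurod1* went from 0.494 to 0.844 times *Neurod4*, so here too the relatives did not change alike. In both pairs the levels were closer in IR12 than in CTRL. By contrast, *Thrb* stood at 0.497 and 0.471 times *Thra*, whose FPKM was 40.6 in CTRL and 40.3 in IR12. *Thra* shares its listed locus with *Nr1d1*, and reads of overlapping genes may be split between them.

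The MEF2 genes kept close to each other. *Mef2d* stood at 0.508 and 0.493 times *Mef2a* (45.7 and 39.4 FPKM), and at 0.357 and 0.397 times *Mef2c* (65.1 and 48.9). *Rxrb*, the most abundant retinoid X receptor gene in both libraries, stood at 28.0 FPKM in CTRL and 34.9 FPKM in IR12, and *Rxrg* went from 0.0711 to 0.0417 times *Rxrb*. *Maf*, a large Maf gene like *Nrl*, had 2.90 in CTRL and 0.654 in IR12 and was the only paralogue at least 2-fold lower, with a log2 ratio of -1.24 as deposited and -0.83 on the TPM scale. *Nr2e1*, the nearest relative of *Nr2e3* and a gene of progenitors and Müller glia, had 4.62 in CTRL and 2.78 in IR12. *Prdm2* and *Prdm8* had log2 ratios of -0.26 and -0.35 as deposited, and 0.36 and 0.21 on the TPM scale, both above that of *Prdm1* on each scale.

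Genes of proteins that work with the factors lay on both sides of 0, as those of all genes did. Of 26 listed cofactors and partners 23 reached FPKM 1, and 14 (60.9%, against 48.2% of all genes) were lower and 9 higher in IR12 as deposited. The TPM scale left 7 lower (30.4%, against 15.7%). As deposited they had a median log2 ratio of -0.27. *Samd7* and *Samd11*, partners in Polycomb silencing of non-rod genes in rods, had 44.6 and 39.1 FPKM in CTRL and 21.7 and 19.4 in IR12. *Esrrb*, an estrogen-related receptor of rods, had 52.1 in CTRL and 27.3 in IR12. These 3 had log2 ratios of -1.01, -0.97 and -0.90 as deposited, lower than that of any of the 9 measured factors, and they stayed below 0 on the TPM scale (-0.38, -0.35 and -0.27). *Nr2f1*, a nuclear receptor that shapes the pattern of cone opsins, stood at 9.61 and 4.07. On the scale of (FPKM + 1), *Samd7* and *Nr2f1* were the 2 partners at least 2-fold lower, and in plain FPKM *Samd11* and *Nr2f2* passed that fold too, both at 2.01-fold. On the scale of (FPKM + 1), 6.12% of all genes were at least 2-fold lower as deposited. No partner was at least 2-fold lower on the TPM scale, where 3 were higher, against 436 and 2817 of all 13599 genes. Among the 9 partners that were higher as deposited, *Nr1d1*, a receptor that acts with Nr2e3, had 16.4 in CTRL and 26.0 in IR12. *Ncor1*, a corepressor of nuclear receptors such as Thrb, had 73.9 in CTRL and 105 in IR12, and *Nono*, a coactivator with Nrl and Crx, had 188 and 215. The general acetyltransferase gene *Ep300* had 53.5 and 43.3, and the coactivator gene *Ncoa1* had 79.1 and 70.7.

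**Figure D4:**
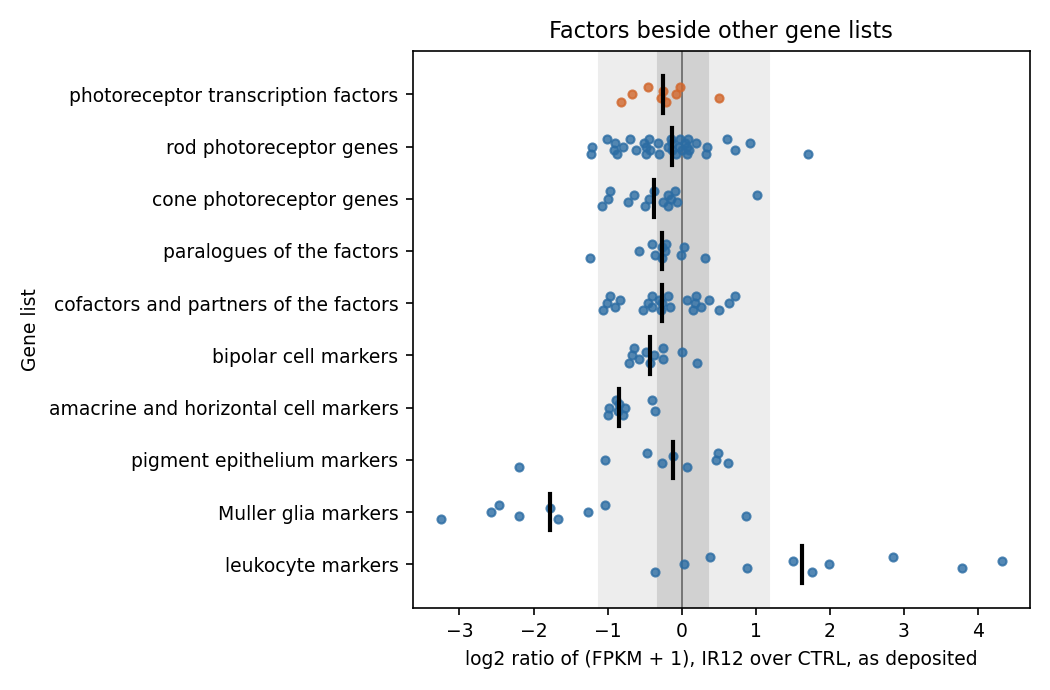
Log2 ratio of (FPKM + 1), IR12 over CTRL as deposited, for each gene with FPKM of at least 1 in at least 1 library; points are genes, black bars are list medians, the dark band holds the middle 50% of all genes and the light band the middle 90%. The factors (orange) have a median of -0.25 and lie within the light band, and Müller glia markers have a median of -1.77. Leukocyte markers have a median of 1.63 (2.74 with a pseudocount of 0.1), but only 3 of these 10 reached FPKM 1 in both libraries. The medians of the factors, rod, cone, paralogue, partner, bipolar and pigment epithelium lists are above 0 on the TPM scale.

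Rod genes, the common targets of Crx, Nrl and Nr2e3, check the tissue label: 36 of 37 were in the table, and all 36 had FPKM of at least 1 in both libraries. Their FPKM summed to 45374 in CTRL and 41966 in IR12, led by *Gngt1* with 12096 in CTRL and 8644 in IR12. As deposited 23 (63.9%, against 48.2% of all genes) were lower and 13 higher in IR12. On the TPM scale 8 (22.2%, against 15.7% of all genes) were lower. The median log2 ratio of the rod genes as deposited was -0.14. Relative to that median, 6 of the 9 factors were lower and 3 (*Neurod1*, *Crx* and *Thrb*) were higher. At least 2-fold lower were *Reep6* (-1.22), *Pdc* (-1.21) and *Samd7* (-1.01), and *Impg2* was higher (1.71). As deposited 6.12% of all genes were at least 2-fold lower and 6.56% higher. None of the rod genes was at least 2-fold lower on the TPM scale, and 4 were higher, against 436 and 2817 of all 13599 genes. Of the 30 rod genes with a promoter in the RefSeq table, 11 (36.7%) hold the Crx core, against 6.34% of all promoters. The other motifs were found in 16.7% to 26.7% of these rod promoters, against 12.0% to 15.1% of all. Of 9 cone genes with a promoter, 2 (22.2%) hold the Crx core, 3 (33.3%) AGGTCA and 1 (11.1%) CAGATG. None of these 9 holds TGCTGA or CAGCTG.

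Cone genes were lower for 14 of 15 as deposited (93.3%, against 48.2% of all genes). On the TPM scale 5 of 15 were lower (33.3%, against 15.7% of all genes). The median log2 ratio of the cone genes as deposited was -0.37, with sums of 1167 FPKM in CTRL and 965 in IR12. The most abundant, *Guca1a*, is also in the rod list and had 225 in CTRL and 165 in IR12. *Gnb3*, a transducin subunit of cones and ON bipolar cells, was the only cone gene higher as deposited, with 71.9 in CTRL and 147 in IR12. As deposited, *Thrb* was nearer 0 than the median cone gene. *Rxrg* was so with the pseudocount of 1, but not with 0.1, where its log2 ratio was -0.43 and the cone median -0.37. The TPM median of the cone list was 0.27, between the values of *Rxrg* and *Thrb*.

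Markers of other cells that hold some of the factors were counted too. Of all genes 48.2% were lower as deposited and 15.7% on the TPM scale. At least 2-fold lower and higher as deposited were 6.12% and 6.56%. Of 11 measured bipolar markers, where *Otx2* and *Crx* are also known, 9 (81.8%) were lower as deposited and 3 (27.3%) on the TPM scale. Their median was -0.43 (0.19 on the TPM scale), and none was at least 2-fold lower or higher. Their sum went from 758 to 576 FPKM, led by *Trpm1* (189.5 and 159), and *Otx2* alone was listed at 0. All 9 measured amacrine and horizontal cell markers were lower as deposited (8 on the TPM scale), with a median of -0.84, next to the -0.82 of *Rorb*. Their sum went from 637 to 369, led by *Calb2* (275 and 148), and none was listed at 0. Of 9 measured pigment epithelium markers 5 (55.6%) were lower as deposited and 2 (22.2%) on the TPM scale. Their median was -0.12 (0.10 with a minimum FPKM of 5, 0.33 on the TPM scale), with sums of 253 and 184. They were led in CTRL by *Rlbp1* (126 and 26.8), which Müller glia share, and in IR12 by *Ttr* (61.8 and 87.4). *Rlbp1* and *Rpe65* (11.1 and 4.88) were at least 2-fold lower, *Rpe65* with a log2 ratio of -1.04 as deposited and -0.46 on the TPM scale. *Otx2* was the only gene of the list at 0.

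As deposited 6.12% of all genes were at least 2-fold lower and 6.56% higher, and on the TPM scale 436 and 2817 of 13599 were. Müller glia markers were at least 2-fold lower for 8 of 9 as deposited. On the TPM scale 6 of 9 were, and the median was -1.13. Their sum was 2053 FPKM in CTRL and 690.3 in IR12, led by *Glul* in CTRL (754 and 126) and by *Vim* in IR12 (121 and 221). None was listed at 0. Leukocyte markers, some of whose cells express *Prdm1*, went from a sum of 21.8 to 138, and 6 of 10 measured were at least 2-fold higher (7 on the TPM scale), led by *Lyz2* (9.73 and 76.9). Their median log2 ratio was 1.63, but 2.74 with a pseudocount of 0.1 and 2.86 with a minimum FPKM of 5. Only 3 of these 10 reached FPKM 1 in both libraries: *Lyz2*, *Aif1* (5.42 and 7.36) and *Csf1r* (3.61 and 3.71). Of these 3, *Lyz2* alone was at least 2-fold higher. The other genes past that fold were below FPKM 1 in CTRL and were counted for their IR12 level alone. The count and the median therefore cannot show a shift of the list as a whole. *S100a8* is listed at 0 in CTRL, *Cd3e* at 0 in CTRL and *Cd79a*, a B cell gene, at 0 in both. The list of lens and blood markers went from a sum of 2969.8 to 388, led by the crystallin gene *Cryba1* (1614 and 196), with none listed at 0. The 5 lens genes were at least 2-fold lower, on the TPM scale too, while *Hbb*, the only measured blood gene, was higher (20.4 and 35.1, log2 ratio 0.75). Of 8 measured ganglion cell markers 6 were lower as deposited (1 on the TPM scale), with a median of -0.16 and sums of 359 and 294, led by *Nefl* (132 and 88.9). None of these was listed at 0. Of 6 measured endothelial markers 3 were lower (2 on the TPM scale), with a median of 0.11 (-0.12 with a minimum FPKM of 5) and sums of 123 and 84.9, led by *Kdr* (108 and 66.8). The part of these cells in the values of *Rorb*, *Prdm1*, *Neurod1* and the other factors was not tested.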

How the data were processed

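Gene expression was measured in 2 retina libraries, 1 CTRL and 1 IR12, assigned by their titles. The authors deposited FPKM for 32662 genes, and the submitters' processing notes name STAR 2.5.2b, Cuffdiff 2.2.0 and rn6 without saying how each was used. Starts are 0-based in the table and are printed with 1 added. The members and gene lists were chosen with earlier results of these data known. Log2 ratios of (FPKM + 1) were computed without further scaling. The added 1 makes changes of low genes look smaller than they are. Genes with FPKM of at least 1 in at least 1 library were counted.

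Named are all 10 factors, and of each other list the 4 genes with the highest mean FPKM, those changed at least 2-fold, and relatives or partners compared with a factor. Not all genes that this rule allows are printed. Alternatives were the TPM scale, centring on the median gene or on the rod list, a common sum without small non-coding RNAs recognised by symbol, a pseudocount of 0.1, a minimum FPKM of 5 or none, and a 1.5-fold threshold.

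The value of a read was taken from the lowest repeated FPKM at each locus length under 1500 bp, and a line over 8 of the 11 lengths of at least 900 bp gave FPKM per read. The other 3 were left out because their ratio between the libraries was not the most frequent value, 1.71, so the fit was selected on that ratio. This step and the intervals were chosen after seeing the data. Transcript lengths were not given, so reads are stated per 1 kb. Motifs were searched in the first 250 bases of RefSeq promoter windows on GRCr8. A planned comparison of proteins was not made, as no protein sequences were used here. The scripts for scaling and depth were tested on simulated data. All steps ran in Python 3.11.15 with matplotlib 3.10.9, scipy 1.17.1, pandas 2.3.3 and numpy 2.4.6.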

Additional observations from a re-analysis of the deposited data

How the results depend on the processing

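With 1 library per condition, no value has a replicate check, and the intervals cover counting error only. On the TPM scale the median log2 ratio of the factors became 0.37 and that of rod genes 0.51, the number of lower factors became 2, and 2817 genes were at least 2-fold higher and 436 at least 2-fold lower. Centred on the rod list, the median of the factors was -0.11 and 6 were lower. At a 1.5-fold threshold 2007 genes were higher and 1861 lower. The other settings (centring on the median gene, a common sum without small non-coding RNAs, a pseudocount of 0.1, a minimum FPKM of 5 or none) kept the median of the factors between -0.34 and -0.23. The number of lower factors was 8 under each of them except the minimum FPKM of 5, which leaves out *Rxrg* and gave 7. Over all results and settings, 104 of 151 values moved by less than 0.1 on the log2 scale, or by at most 1.5 times for counts, and 47 moved by more. The cause of the gap between the deposited and the TPM scale was not tested. Depth limits *Rxrg* most.

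No paired analysis was possible because the result comes from no test and each group holds 1 library.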

Other observations

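Of 17 listed progenitor and early fate factors 9 reached FPKM 1, and 7 were lower and 2 higher in IR12 as deposited, with a median log2 ratio of -0.68 (5 lower on the TPM scale, median -0.10, and a median of -0.38 with no minimum FPKM). *Pax6*, expressed in amacrine, ganglion and horizontal cells of the adult retina, stood at 165 FPKM in CTRL and 105 FPKM in IR12, and its log2 ratio on the TPM scale was 0.00. *Hes1*, a Notch target and repressor of neuronal genes, had 17.1 in CTRL and 4.10 in IR12, with a ratio of -1.83 (log2) as deposited and -1.24 on the TPM scale. *Sox9* and *Sox2*, which adult Müller glia express, had 3.99 and 12.6 in CTRL and 1.44 and 7.42 in IR12. The summed FPKM of the list was 264 in CTRL and 166 in IR12, 2 genes were listed at 0 in both libraries (*Neurog2* and *Atoh7*, which start neurogenesis), and *Sox9* is also in the Müller glia list. Müller glia markers moved the same way with a median of -1.77, and their part in these values was not tested.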
